A study of Mus musculus with 6 samples.

Results

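The events described here are alternative splicing events that were almost never included in control medullary thymic epithelial cells. An event is called skipped in a group when its inclusion frequency, a fraction from 0 to 1, lay below 0.01 in both libraries of the group. By this rule 652 of the 4658 events compared, in 515 of 2685 genes, were skipped in the control. These 652 are the members of the set. The rule reads the control values, so a member could hardly move anywhere but up when read in another library.

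These cells (mTECs) belong to the thymic stroma and display antigens of other tissues to developing T cells. Primary mouse mTECs, sorted as CD45- EpCAM+ Ly51- I-A/E+, were cultured on a fibrin gel seeded with human dermal fibroblasts and infected with pLKO.3G lentiviruses that carry an eGFP cassette and an shRNA. All groups share this culture, the vector and the harvest 5 days after infection as DAPI- I-A/E+ GFP+ cells; the labels used here give neither strain nor age. The control (Ctr) carried an shRNA against LacZ in both of its 2 libraries, while Raver2 knockdown and Setd2 knockdown had 2 libraries each, with the hairpin sh1 in one and sh2 in the other. Each knockdown library thus stands for 1 hairpin, and it is not stated if a group's libraries had separate cultures or animals. Hence p-values cover no more than the library-to-library spread, possibly a technical one.

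A skipped exon or splice site is left out of the mature transcript because the splicing machinery passes it over, often under a repressor bound nearby. Raver2 is an RNA-binding protein that works with one such repressor, the polypyrimidine tract binding protein PTB. Setd2 is the methyltransferase that trimethylates lysine 36 of histone H3 along transcribed genes, a mark that recruits splicing regulators. Thymic epithelial cells transcribe many genes of other tissues, in part through Aire, so the events measured include those of genes normally active elsewhere.

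The libraries listed 4777 to 4949 events. The list was longest in Ctr (4915 and 4949 events) and shortest under Setd2 knockdown (4846 and 4777), with Raver2 knockdown between (4884 and 4877). The share of compared events below 0.01 went the opposite way, with 20.6% and 19.8% in Ctr, 21.5% and 20.9% under Raver2 knockdown and 22.2% and 23.7% under Setd2 knockdown. No depth is known for any fraction, and the part of depth in the results was not tested. Raver2 and Setd2 themselves had no event in the comparison, so these values do not show how strong either knockdown was. Of the markers listed for each cell type, 2 of 10 for mTECs (Aire and Cd74), 1 of 10 for fibroblasts (Postn) and 3 of 10 for leukocytes (Ptprc, Cd8a and Lck) had an event, and Aire alone had members. A listed event does not measure how much RNA of a gene is present.

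In Ctr, most members lay far below the limit. The higher of the 2 Ctr fractions was below 0.001 in 499 members (76.5%) and below 1e-06 in 159, and 1 member, in the non-coding gene A730082K24Rik, was exactly 0 in both. Event 4 of Anks1b was deposited as 1.85e-128 in Ctr library 1, smaller than a ratio of whole read counts could be. The members nearest to the limit were those of Eng, the TGF-beta co-receptor endoglin (0.00981 and 0.00994 in Ctr), Zfp811, a zinc finger gene (0.00985 and 0.00757), and Pdc, which encodes the photoreceptor protein phosducin (0.00971 and 0.00982). Just outside lay events of Tceal8 (4.38e-07 and 0.01004), Kif1b, a kinesin motor of axonal transport (0.0103 and 0.00755), and Setdb1, a histone H3 lysine 9 methyltransferase (2.53e-05 and 0.0104).

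Members came from genes with about as many events, transcripts and exons as the rest but with a longer span. Of the 652, 35.7% were the only event of their gene, against 36.003% of all events, and the median number of events per gene was 2 in both. Genes with a member had a median of 7 annotated transcripts and 24 distinct exons in GENCODE M21, against 7 and 25 over all genes compared, and 95.4% against 97.5% were protein coding (495 of the 515 symbols matched). The median span was 41.7 kb for genes with a member and 32.1 kb for all genes compared. Another event of the same gene with the same values, within 0.01 in every library, was found for 22.4% of members and 10.9% of all events. This tolerance equals the limit for skipping, so events of a gene that stay skipped in every library match by construction: the share was 31.3% of members below 0.01 in all 6 libraries and 8.82% of those gained in either knockdown. Exact repeats were few, and counting identical events once left 638 members. A complementary event, with values adding to 1 within 0.01 in every library, was found for 11.04% and 10.03%.

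Membership varied with the kind of gene, as grouped by symbol patterns, which can take in a gene by its name alone. Of the events of ion channels and neurotransmitter receptors, 28.7% were skipped in Ctr (27 of 94), and so were 22.3% of those of actin and membrane skeleton genes (29 of 130), 21.6% of those of leukocyte receptor and signalling genes (33 of 153) and 20.5% of those of synapse and neural adhesion genes (23 of 112). The shares were 3.42% in zinc finger genes (5 of 146), 3.66% in chromatin genes (3 of 82) and 5.93% in RNA-binding and splicing genes (8 of 135). Over all events the share was 14.0%.

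The same lists were read in the knockdown libraries, which the rule did not use. Ion channel events were skipped in 32.98% of cases under Raver2 knockdown and 30.9% under Setd2 knockdown, while zinc finger and chromatin events stayed between 2.44% and 5.48%. Other lists differed from their Ctr value. Of 161 transcription factor events, 13 (8.07%) were skipped in Ctr, against 32 (19.9%) with Raver2 knocked down and 26 (16.1%) with Setd2 knocked down. Synapse and neural adhesion events went from 20.5% in Ctr to 35.7% and 31.3%, and extracellular matrix and adhesion events from 13.8% to 26.2% and 24.6%. Leukocyte events had a lower share in the knockdowns, 14.4% and 18.3%. Over all events the shares were 15.7% and 16.9%. These shares are descriptions over events that share genes and libraries, with no test.

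**Figure D1:**
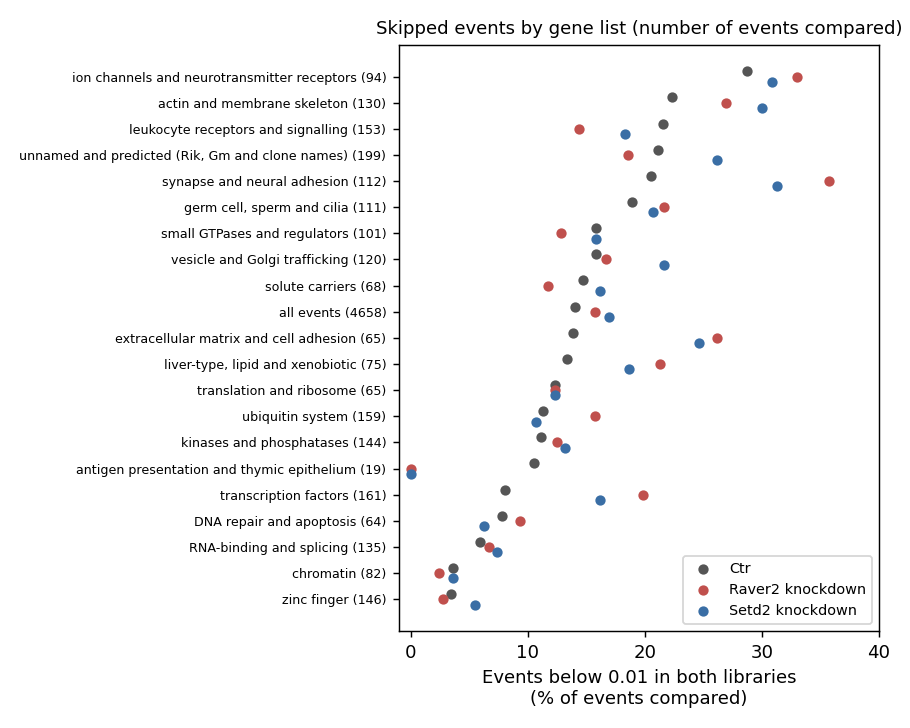
Percent of events (x axis) below 0.01 in both libraries of Ctr (grey), Raver2 knockdown (red) and Setd2 knockdown (blue) for each gene list (rows, with the number of events compared). Ion channel events lie near the upper end in all 3 groups and zinc finger and chromatin events at the lower end, while transcription factor events lie at 8.07% in Ctr and at 19.9% and 16.1% in the knockdowns.

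How far a skipped event moves by itself was gauged within Ctr. Of the 961 events below 0.01 in Ctr library 1, 24.1% were at 0.05 or more in Ctr library 2, which carried the same LacZ shRNA. The same events were at 0.05 or more in 22.9% and 24.3% of cases in the Raver2 libraries (sh1 and sh2) and in 20.6% in each Setd2 library. Of the 923 events below 0.01 in Ctr library 2, 20.7% were at 0.05 or more in Ctr library 1, 23.4% in each Raver2 library and 20.7% and 19.9% in the Setd2 libraries. Events skipped in 1 Ctr library thus reached 0.05 about as often in the other Ctr library as in a knockdown library.

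Skipped events of a knockdown library behaved differently when read in Ctr. Of the 1003 events below 0.01 in the Raver2 sh1 library, 19.04% were at 0.05 or more in the Raver2 sh2 library and 19.04% and 17.3% in the Setd2 libraries, but 27.7% and 30.5% in the Ctr libraries. Each of the other 3 knockdown libraries gave the same order, with 27.8% to 33.6% in Ctr libraries and 15.5% to 23.6% in the other knockdown libraries.

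**Figure D2:**
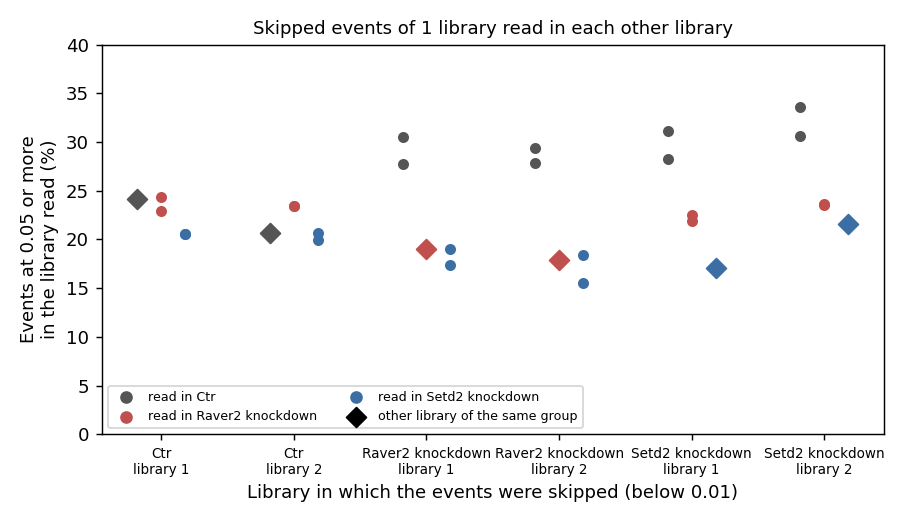
For each library in which events were skipped (x axis, below 0.01), the percent of those events at 0.05 or more in each other library (y axis); colour gives the group of the library read and a diamond the second library of the same group. Starting from Ctr libraries the points lie between 19.9% and 24.3% whatever is read, while starting from knockdown libraries the Ctr points (27.7% to 33.6%) lie above all others (15.5% to 23.6%).

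Requiring both libraries removes much of this. An event is called gained in a group when it was at 0.05 or more in both libraries of that group. Under Raver2 knockdown 51 of the 652 members (7.82%), in 45 genes, were gained, which is 1.09% of all events compared. Under Setd2 knockdown 34 members (5.21%), in 31 genes, were gained, 0.73% of all events compared. The rule used the Ctr side of both comparisons, so these counts are descriptions and carry no test. With any 1 of the libraries left out the counts rose to between 96 and 139 for Raver2 knockdown and between 76 and 115 for Setd2 knockdown, since 1 library then stands for its group. For scale, 66.9% of all events were at 0.05 or more in both Raver2 libraries and 64.1% in both Setd2 libraries.

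The mirror runs the other way. Of the 733 events skipped under Raver2 knockdown, 95 (12.96%) were at 0.05 or more in both Ctr libraries, 2.04% of all events. Of the 788 skipped under Setd2 knockdown, 110 (14.0%) were, 2.36% of all events. Gains from Ctr were thus fewer than the mirror losses for both knockdowns, 51 against 95 and 34 against 110. At 0.5 or more in both libraries the order was kept, with 17 against 45 and 11 against 47. Between the knockdowns, where no Ctr value enters, 39 of 733 events skipped under Raver2 knockdown were gained under Setd2 knockdown (5.32%, and 0.837% of all events), and 51 of 788 the other way (6.47%, and 1.09%). The gain of Ctr-skipped events was of this size, and the loss of Ctr-included events was larger. Both knockdowns are read against the same 2 Ctr libraries, so their mirrors are not independent of each other.

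**Figure D3:**
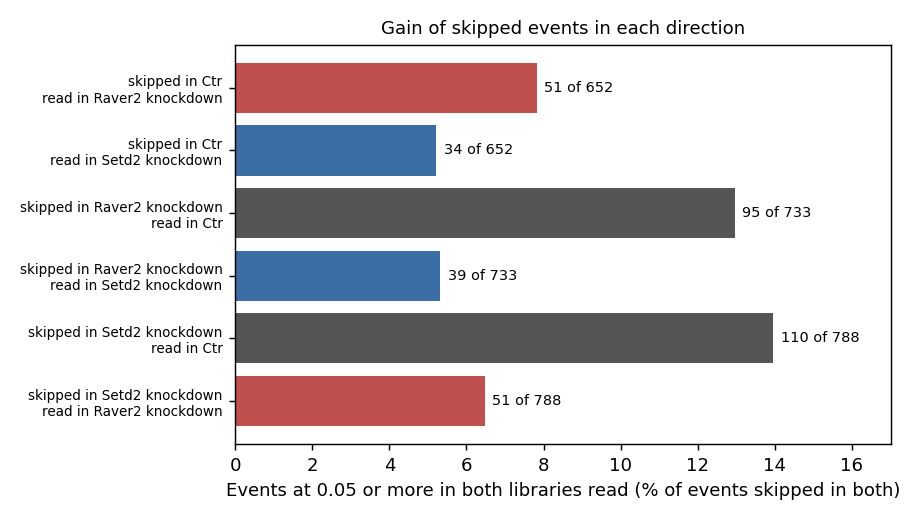
Percent of events skipped in both libraries of one group that were at 0.05 or more in both libraries of another (x axis), for the 6 directions (rows); labels give the counts. The bars read in Ctr (95 of 733 and 110 of 788) are longer than the other 4, which lie between 5.21% and 7.82%.

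The size of a gain varied from just over the limit to full inclusion. Of the 51 members gained under Raver2 knockdown, 40 were at 0.1 or more, 17 at 0.5 or more and 9 above 0.99 in both libraries; of the 34 gained under Setd2 knockdown, 24, 11 and 5 were. Members at 0.05 or more in a single library of a group were more common, 95 for Raver2 knockdown and 88 for Setd2 knockdown. Of these, 30 and 20 were above 0.99 in one library and below 0.01 in the other. Of the 96 members that reached 0.05 with Raver2 sh1, 53.1% did so with sh2, and of the 80 with Setd2 sh1, 42.5% did so with sh2. Members that reached 0.05 with a single hairpin of a target (95 and 88) thus outnumbered those that did so with both (51 and 34). In 81 of the 95 and 70 of the 88 the other library was below 0.01. Most members reached 0.05 with neither hairpin of a target, and these are left out of this comparison.

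Aire, the autoimmune regulator that drives antigen expression in mTECs, held 2 of the members gained in both knockdowns, out of 9 events (chromosome 10, 78030022 to 78043610, minus strand, mm10). Event 1 stayed below 0.001 in Ctr and was 0.108 and 0.122 in the Raver2 libraries and 0.0846 and 0.0677 in the Setd2 libraries. Event 2 stayed below 0.001 in Ctr and was 0.190 and 0.168 under Raver2 knockdown and 0.118 and 0.1096 under Setd2 knockdown. The gap from Ctr is set by how these events were chosen. Between the knockdowns, both Raver2 libraries lay above both Setd2 libraries in each event, an order whose share over all events was not counted. The difference between the knockdowns was 0.0389 ± 0.00994 (SE) in event 1 and 0.0650 ± 0.0118 in event 2. Neither passed over all events (limma, adjusted p = 0.673 and 0.459). The remaining 7 events of Aire were not members. Event 3 fell about as far as event 1 rose, from 1 in both Ctr libraries to 0.892 and 0.890 under Raver2 knockdown and 0.925 and 0.933 under Setd2 knockdown. The 2 may thus be sides of a single change. Event 7 was 1 in Ctr library 1 and 0.000492 in Ctr library 2, so events of Aire can differ fully between repeats.

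Leukocyte genes held the most gained members of the named lists. Of the 33 members in this list, 11 were gained under Raver2 knockdown (33.3%, against 7.82% of all members) and 7 under Setd2 knockdown (21.2%, against 5.21%). The 12 members gained in either lay in 9 genes, with near-repeats in Cd22 and Cd247. Smaller lists had like shares, with 3 and 1 of 10 members of solute carrier genes (30.0% under Raver2 knockdown), 2 and 1 of 10 of liver-type, lipid and xenobiotic genes (20.0%) and 2 and 3 of 13 of transcription factor genes (15.4% and 23.1%), so high shares were found in other lists too. Library by library, 11 and 14 of the 33 reached 0.05 with Raver2 sh1 and sh2 and 9 and 8 with Setd2 sh1 and sh2, 24.2% to 42.4% against 11.7% to 15.5% of all members. The median over list members of the higher knockdown mean was 0.0377, against 0.00299 over all members. The mirror held 3 leukocyte events for each knockdown, 13.6% of those skipped under Raver2 knockdown and 10.7% of those skipped under Setd2 knockdown, against 12.96% and 14.0% over all skipped events. In such sorted bulk samples more cells of a type and more RNA per cell cannot be told apart, and the fractions give neither; the part of either in these values was not tested.

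Several of these leukocyte members went from skipped to nearly full inclusion. Event 1 of Fcrl5, an Fc receptor-like protein of B cells (chromosome 3, 87435773 to 87500678), stayed below 0.001 in Ctr and was 0.988 and 0.985 under Raver2 knockdown and 0.985 and 0.993 under Setd2 knockdown. Event 1 of Clec4b1, a C-type lectin receptor of myeloid cells (chromosome 6, 123049962 to 123071555), was below 0.001 in Ctr, above 0.99 and 0.899 under Raver2 knockdown and above 0.99 in both Setd2 libraries. Event 3 of Cd209b, a lectin of splenic macrophages (chromosome 8, 3917655 to 3926844, minus strand), was 0.00255 and 0.000492 in Ctr, above 0.99 and 0.892 under Raver2 knockdown and above 0.99 in both Setd2 libraries. Among the knockdown libraries, Raver2 sh2 was the lowest in all 3 events, by the most in Cd209b and Clec4b1.

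Event 2 of Ccr6, the receptor of the chemokine CCL20 (chromosome 17, 8236043 to 8257141), was below 0.001 in Ctr, 0.531 and above 0.99 under Raver2 knockdown and 0.989 and above 0.99 under Setd2 knockdown. In the same gene, event 1 was 1.14e-24 in one Ctr library and above 0.99 in the other, so its events can differ fully between repeats. Event 2 of Klra3, a receptor of natural killer cells (chromosome 6, 130323289 to 130337574, minus strand), was below 0.001 in Ctr and spread over 0.996, 0.388, 0.318 and 0.132 in the knockdown libraries. Event 3 of Il15ra, a receptor chain for interleukin 15 (chromosome 2, 11705290 to 11734317), was above 0.99 in both Raver2 libraries and the Setd2 sh1 library but 0.000242 with Setd2 sh2. Klra3, Cd209b and Clec4b1 have closely similar paralogs, between which the authors' counting could split reads.

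Other leukocyte members reached low levels only. Event 1 of Cd22, an inhibitory lectin of B cells (chromosome 7, 30865402 to 30880342, minus strand), was below 0.001 in Ctr, 0.0927 and 0.0761 under Raver2 knockdown and 0.0519 and 0.0658 under Setd2 knockdown; its event 3 followed within 0.01 in every library. Event 2 of Fcrl1, a relative of Fcrl5 named here after its values were seen, was 0.0519 and 0.0734 under Setd2 knockdown and 0.0299 and 0.0739 under Raver2 knockdown. Event 3 of Cd247, a signalling chain of the T cell receptor, was 0.0552 and 0.0610 under Raver2 knockdown and below 0.001 in both Ctr and both Setd2 libraries.

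In all, 17 members in 15 genes were gained in all 4 knockdown libraries, 0.365% of all events compared, which is 33.3% of those gained under Raver2 knockdown and 50.0% of those gained under Setd2 knockdown. The knockdowns share the Ctr libraries that chose the members. Apart from the leukocyte genes and Aire, event 1 of Kng2, a kininogen made mainly in liver (chromosome 16, 22985854 to 23029482, minus strand), and event 5 of Slc10a7, a member of the bile acid transporter family (chromosome 8, 78509346 to 78734003), were below 0.002 in Ctr and above 0.99 in all 4. Event 1 of Dlk1, an imprinted Notch-related transmembrane protein (chromosome 12, 109452823 to 109463336), was below 0.001 in Ctr, above 0.99 in both Raver2 libraries and Setd2 sh1 but 0.148 with Setd2 sh2.

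The remaining members gained in all 4 libraries were at intermediate levels. Event 1 of Rarb, a retinoic acid receptor (chromosome 14, 16430839 to 16819156, minus strand), was 0.000488 and 0.00123 in Ctr, 0.111 and 0.104 under Raver2 knockdown and 0.161 and 0.0998 under Setd2 knockdown. Event 1 of Gcsam, a signalling protein of germinal centre B cells that the leukocyte list does not hold (chromosome 16, 45610380 to 45622867), was below 0.001 in Ctr and 0.0870, 0.173, 0.236 and 0.153 in the knockdown libraries. Event 2 of the non-coding gene E230029C05Rik (chromosome 7, 89980723 to 90049069) was below 0.001 in Ctr and 0.232, 0.341, 0.197 and 0.310. The rule fixes the gap from Ctr; the ranges of the knockdowns overlapped each other in these 3 events.

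Event 3 of Zpbp2, a sperm protein that binds the egg coat (chromosome 11, 98551097 to 98558665), was below 0.001 in Ctr and 0.115, 0.166, 0.460 and 0.162 in the knockdown libraries, in the order Raver2 sh1, Raver2 sh2, Setd2 sh1 and Setd2 sh2. Event 4 of Anks1b, a protein of the postsynaptic density (chromosome 10, 89873509 to 90973300), was 0.483, 0.939, 0.495 and 0.0850 in the same order. In Zpbp2 the Setd2 libraries, and in Anks1b the Raver2 libraries, lay further apart than the means of the knockdowns.

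**Figure D4:**
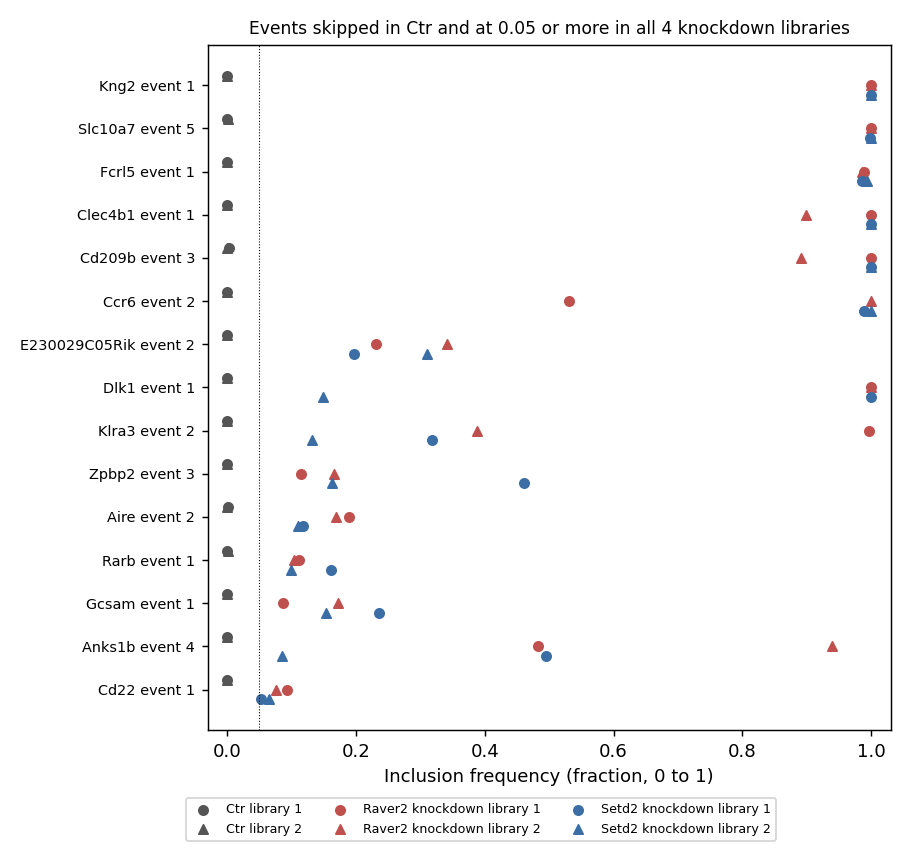
Inclusion frequency (x axis, fraction) in the 6 libraries for the member with the highest lowest knockdown fraction in each of the 15 genes (rows) gained in all 4 knockdown libraries; circles are library 1 or sh1 and triangles library 2 or sh2. All Ctr points lie near 0; knockdown points of Fcrl5, Kng2 and Slc10a7 crowd at the right end, and those of Anks1b spread from 0.0850 to 0.939.

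Some members were gained under one knockdown and still skipped under the other. There were 11 such events for Raver2 knockdown and 5 for Setd2 knockdown, out of the 652 members. Over all 4658 events compared, whatever their Ctr value, 51 (1.09%) were gained under Raver2 knockdown and skipped under Setd2 knockdown. The reverse held for 39 (0.837%). The 11 included event 1 of Rhpn1, event 3 of Repin1, a zinc finger protein of replication, event 1 of the non-coding gene A730082K24Rik, event 2 of Kirrel3, an adhesion protein of synapses, event 1 of Apol7a, an apolipoprotein L gene, and event 1 of Mid1, a microtubule-associated ubiquitin ligase. Repin1 was 0.00924 and 0.00666 in Ctr, 0.988 and 0.874 under Raver2 knockdown and below 0.01 in both Setd2 libraries. Kirrel3 was 0.666 and 0.392, Apol7a 0.481 and 0.306 and Mid1 0.670 and 0.286 with Raver2 sh1 and sh2, and all 3 were below 0.002 in the other 4 libraries. Event 4 of Kirrel3, also a member, was 0.0167 and 0.379 with Setd2 sh1 and sh2 and below 0.001 in the other 4 libraries. For the 11 events, the gap between the Raver2 libraries and the rest is fixed by how they were chosen. The Raver2 libraries differed between hairpins in Repin1, Kirrel3, Apol7a and Mid1. They were 0.999 and 0.998 in Rhpn1 and both 0.504 in A730082K24Rik.

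For Setd2 knockdown the 5 events lay in 4 genes. Event 1 of Egr3, an immediate early transcription factor, was 0.116 and 0.0939 with Setd2 sh1 and sh2, event 1 of Ncam1, a neural cell adhesion molecule, was 0.102 and 0.0939, and event 1 of Rbak, a KRAB zinc finger gene, was 0.0577 and 0.169, each below 0.001 in the other 4 libraries. Events 1 and 2 of 4931409K22Rik, which held the same values, were 0.984 and above 0.99. A larger number had a mixed second knockdown: 22 of the 51 members gained under Raver2 knockdown reached 0.05 in exactly 1 Setd2 library, and 12 of the 34 gained under Setd2 knockdown did so in exactly 1 Raver2 library. These include event 1 of Iqsec3, an Arf exchange factor of inhibitory synapses, and event 1 of Pcdh9, a protocadherin, both above 0.99 in both Raver2 libraries and the Setd2 sh2 library and below 0.001 with Setd2 sh1. Event 2 of Pde1c, a phosphodiesterase, and event 3 of Bre, a subunit of a deubiquitinase complex, were above 0.98 in both Setd2 libraries and the Raver2 sh2 library and below 0.001 with Raver2 sh1.

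The comparison of Raver2 with Setd2 knockdown was the one test that did not use the values that chose the members, and it was fitted to the 4 knockdown libraries alone. Of the 652 members 8 passed (1.23%; limma, adjusted p under 0.05), 5 of them higher with Raver2 knocked down and 3 with Setd2 knocked down. Over all events 46 passed, 0.988% in either direction, 0.429% toward Raver2 knockdown and 0.558% toward Setd2 knockdown, so the members' share is near the background. At an unadjusted p under 0.05 the counts were 33 members (5.06%) and 322 events (6.91%). The members higher under Raver2 knockdown were Rhpn1 (difference 0.998 ± 0.0432, SE), event 2 of Slc10a3-ubl4 (0.987 ± 0.0438), A730082K24Rik (0.504 ± 0.0231), event 3 of Cd247 (0.0581 ± 0.00263) and event 2 of Rad52, a recombination protein (0.0424 ± 0.00123). Those higher under Setd2 knockdown were Ncam1 (-0.0980 ± 0.00369) and the pair of 4931409K22Rik events (-0.992 ± 0.0441). Event 2 of Cd247, within 0.01 of its event 3 in every library, did not pass (0.0547 ± 0.00358, limma, adjusted p = 0.0806).

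All 8 had the same adjusted p of 0.0491, just under the threshold. No member passed with the hairpin number as a replicate block, with identical events tested once, or without either Setd2 library. Without the Raver2 sh1 library 37 members passed, and without the Raver2 sh2 library 22; 3 of the 8 were among them in each case. In these fits with 1 library left out, an arm of 1 library is assumed to vary like the other knockdown. Slc10a3-ubl4 is a read-through of neighbouring genes, so its reads cannot be told apart from theirs. None of the 17 members gained in all 4 libraries passed between the knockdowns (smallest adjusted p = 0.459, limma), and 2 of them had an unadjusted p under 0.05.

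**Figure D5:**
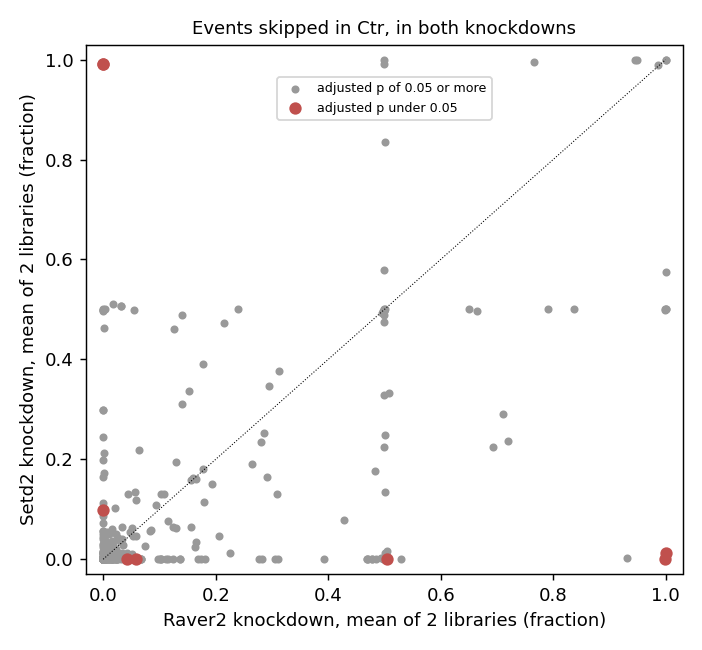
Mean inclusion frequency of each of the 652 members under Raver2 knockdown (x axis) and Setd2 knockdown (y axis), each a mean of 2 libraries; red points passed between the knockdowns (adjusted p under 0.05). Most members lie near 0 in both, the red points lie along the axes, and most points on the lines at 0.5 are members near 1 in one library and near 0 in the other, while the red point at 0.5, A730082K24Rik, was 0.504 in both Raver2 libraries.

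Most members stayed skipped. Of the 652, 431 (66.1%) were below 0.01 in both Raver2 libraries, 456 (69.9%) in both Setd2 libraries and 368 (56.4%), in 303 genes, in all 6 libraries. In the mirror, 58.8% of events skipped under Raver2 knockdown and 57.9% of those skipped under Setd2 knockdown were still skipped in Ctr, while 73.4% and 68.3% were still skipped in the other knockdown. Of the 538 events skipped in all 4 knockdown libraries, 44 (8.18%) were at 0.05 or more in both Ctr libraries.

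Several lists held no member gained in both libraries of a knockdown, but with 7.82% and 5.21% of all members gained, a list of this size can hold none without standing apart. These were the 8 members of RNA-binding and splicing genes, 3 of chromatin, 5 of zinc finger, 5 of DNA repair and apoptosis and 8 of translation genes. Also without a gain were the 19 of vesicle and Golgi trafficking, 9 of extracellular matrix and adhesion and 21 of germ cell, sperm and cilia genes. The lists go by symbol and miss genes: the sperm list does not hold Zpbp2, nor the zinc finger list Repin1 and Rbak, all with gained members. Single libraries did reach 0.05 in the RNA-binding list, in 2 of 8 members with Raver2 sh2 and 2 of 8 with Setd2 sh1 (25.0% each, against 15.5% and 12.3% of all members), all of them events of Mettl20. The RNA-binding members lay in Srsf10, a splicing repressor of the SR family, Celf2 and Rbfox3, regulators of tissue-specific exons, Rbm41, and Mettl20, which matched the list by its symbol but methylates a mitochondrial protein. Event 1 of Srsf10 was 0.00269 and 0.00157 in Ctr, 0.00281 and 0.00386 under Raver2 knockdown and 0.00557 and 0.00225 under Setd2 knockdown. Of 29 members in actin and membrane skeleton genes 1 was gained, Rhpn1 under Raver2 knockdown, and of 27 in ion channel genes 1, event 1 of the calcium channel subunit Cacna2d1, under Setd2 knockdown (0.0588 and 0.179).

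A gene with several events can hold both a gained member and a mirror event, which must fall below 0.01. Under Raver2 knockdown 3 genes held both (6820408C15Rik, Il15ra and Pcdh9), out of 45 genes with gains and 84 with mirror events. Under Setd2 knockdown 2 did (Ccr6 and Pde1c), out of 31 and 99. With 2685 genes compared, whether these overlaps are high or low was not tested. Falls that need not go below 0.01 were counted only in genes with gains and 2 or more events. Under Raver2 knockdown 13 of 30 such genes had another event lower than in Ctr by 0.05 in both libraries. Under Setd2 knockdown 7 of 22 did. How often this holds in genes without gains was not counted. In 6820408C15Rik event 2 was gained with both Raver2 hairpins and Setd2 sh1 while event 1 was lost in the same libraries, so a single change is counted once on each side. Mirror events with the highest Ctr inclusion were those of Adora1, an adenosine receptor, Pdpn, the stromal glycoprotein podoplanin, and Tgfb1i1, a focal adhesion protein, for Raver2 knockdown, and of Ank1, an ankyrin, Ece2, a peptidase, event 2 of Lin7a and Dlg5, both scaffolds of cell polarity, for Setd2 knockdown. All were above 0.99 in both Ctr libraries. Transcription factor genes held 10 of the 95 and 9 of the 110 mirror events, 31.3% and 34.6% of their skipped events against 12.96% and 13.96% over all skipped events, and 2 and 3 of the gains. Synapse and neural adhesion genes held 10 and 12 mirror events, 25.0% and 34.3% of their skipped events, and 3 and 1 of the gains. The synapse list does not hold Kirrel3, Anks1b or Iqsec3, which had gained members. The transcription factor list holds the non-coding gene Six3os1 but not Egr3, both with gained members. Gains and losses of these 2 kinds of gene can thus not be weighed by these counts.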

How the data were processed

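Inclusion frequencies were deposited as fractions, 1 table per library, by the authors; the tools named are TopHat2, Cufflinks and Trimmomatic 0.39, with the build mm10, per the submitters' processing notes. The sources used here give neither the formula of a fraction nor its depth. Events were matched by gene and order within the gene over genes with equal numbers of events in all 6 libraries (2685 of 2898 genes); at the same position libraries correlated at 0.742 to 0.802 across 2981 events of genes with several events, and at 0.0863 to 0.133 after a shift by 1 place. Gene positions come from GENCODE M21 by symbol.

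Knockdown-against-Ctr counts carry no test. Raver2 against Setd2 knockdown was tested with limma 3.58.1 (R 4.3.3), two-sided, with a variance trend and Benjamini-Hochberg adjustment over 4658 events. Ctr was left out of that fit because members have little Ctr spread by choice. The script was tested on simulated data in 2 scenarios. Changes in mid-range events were not called at all, and the second scenario, added after that, used large changes in low events of small spread: nearly all were called, but the share of false calls was above the threshold. In these simulations the fit thus missed mid-range changes, and its calls held more errors than the adjusted p states. Tables were read with Python 3.11.15 and pandas 2.3.3. The members, the 20 gene lists (symbol patterns) and the rules were chosen with earlier results of these data known. Genes were named by the lower fraction of a group (12 per knockdown, 15 for all 4 libraries, 6 per single knockdown, 4 per list and mirror), and by passing the test; the text names only some of them.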

Additional observations from a re-analysis of the deposited data

Results flagged for a closer look

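The fractions of 8 members differed between the knockdowns by the test of Raver2 minus Setd2 knockdown (limma over all events, adjusted p = 0.0491 in each). These are 1.23% of members, near the 0.988% called over all events, and the fit holds no Ctr library. The differences were 0.0424 in event 2 of Rad52, 0.998 in Rhpn1, 0.987 in event 2 of Slc10a3-ubl4, 0.0581 in event 3 of Cd247 and 0.504 in A730082K24Rik, all higher in both Raver2 libraries than in both Setd2 libraries. They were -0.0980 in Ncam1 and -0.992 in events 1 and 2 of 4931409K22Rik, higher in both Setd2 libraries. With the libraries of the 2 knockdowns fully apart in each event, no other setting could reverse the direction. Adjusted p values (limma) ranged from 0.000193 without a variance trend to 0.504 with the hairpin number as a replicate block.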

How the results depend on the processing

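Depth is unknown, so a fraction near 0 cannot be told from one resting on few reads. Events were matched by order, and 2 libraries a group limit every call.

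Counts moved by over 1.5 times under these settings, given as members gained with Raver2 knockdown, with Setd2 knockdown and in all 4 libraries. They were 82, 60 and 31 with skipped set below 0.05; 81, 72 and 39 with gained at 0.01 or more; 17, 11 and 6 with gained at 0.5 or more; and 15, 9 and 4 in the 233 members that are the only event of their gene. With gained at 0.1 or more, 11 were gained in all 4. Mirror counts in Ctr were 45 (Raver2-skipped) and 47 (Setd2-skipped) at 0.5 or more and 43 and 52 in single-event genes. Between the knockdowns, Raver2-skipped events gained under Setd2 knockdown numbered 21 and 12, and the reverse 16 and 15, with 81 at 0.01 or more. Gains were fewer than the mirror losses for both knockdowns under each of these settings.

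Without 1 library in turn, members gained ranged from 96 to 139 (Raver2), 76 to 115 (Setd2) and 20 to 68 (all 4). The mirrors in Ctr ranged from 160 to 181 and 176 to 237, and those between the knockdowns from 76 to 97 and 114 to 146.

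Raver2 against Setd2 knockdown called 83 events and 16 members on the logit scale, 14 members with all 6 libraries in the fit, 5 members without a variance trend, and 0 of either with a filter on low and high values or with identical events once (limma; at unadjusted p under 0.05, 220 and 305 events). Without 1 library in turn, 0 to 149 events and 0 to 37 members were called, with the lone library assumed to vary like the other knockdown. With the hairpin number as a replicate block 0 events and 0 members were called (265 events unadjusted). Same-numbered libraries deviated together at r = 0.0146 and crossed ones at -0.0146, opposite by construction with 2 libraries a group. Shared handling of same-numbered libraries was not tested. The 8 members that passed kept their direction under every setting that tested them, but in 48 of these comparisons they no longer passed, against 27 in which they did.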

Other observations

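Event 1 of the non-coding gene A730082K24Rik (chromosome 7, 114948650 to 114983960, mm10) was listed at exactly 0 in both Ctr and both Setd2 libraries and at 0.504 in both Raver2 libraries, with an SD of 1.99e-05 between the hairpins. Event 1 of Foxp3, the transcription factor of regulatory T cells, and event 2 of Tlr7, a sensor of RNA, were chosen after their values were seen: Foxp3 was 0.00745 and 0.00276 in Ctr and below 0.001 in the 4 knockdown libraries, and Tlr7 was 0.0440 and 0.0390 under Setd2 knockdown, below the level called gained, and below 0.003 elsewhere. By chromosome, the share of compared genes with a member ran from 15.7% (chromosome 9) to 26.9% (chromosome 10).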
